A study of Mus musculus with 9 samples.

Results

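The 9 genes described here mark dendritic cells or drive their development, and they were taken by gene name from the 56980 genes of the authors' table. Siglech, Tcf4 and Spib stand for plasmacytoid dendritic cells. Cd209a and Clec10a stand for type 2 conventional dendritic cells (cDC2), Clec9a and Batf3 for type 1 (cDC1), and Zbtb46 for conventional dendritic cells as a whole. Cd300c encodes a receptor of the CD300 family that several myeloid cells carry. The study sequenced RNA of wild type C57BL/6 mice without a drug or transgene, 4 young mice of 3 months and 5 aged mice of 20 months, to look for genes linked to sensory innervation during ageing. The labels give bone marrow as the tissue, while the extraction protocol describes homogenised trabecular bone. Each library is named as a biological replicate, and the text of the series calls the mice female.

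Dendritic cells take up antigen and present it to T cells, and they arise in bone marrow from progenitors that need the receptor FLT3. Plasmacytoid dendritic cells depend on the E protein TCF4 and the ETS factor SPI-B and release type I interferon when they sense viral nucleic acid. Conventional dendritic cells divide into cDC1, which need BATF3 and IRF8 and cross-present material from dead cells, and cDC2, which need IRF4 and activate helper T cells. Most of these genes are not restricted to dendritic cells. B cells also use Spib and Tcf4, erythroid progenitors and endothelium use Zbtb46, and monocytes, macrophages and T cells can express Batf3. In RNA from a whole tissue, fewer cells of a type and less RNA per cell cannot be told apart.

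None of the 9 genes passed the test of aged against young mice across all genes, edgeR's quasi-likelihood test on 16576 genes, in which 0 genes passed an adjusted p of 0.05 (0%). By the same test 1457 genes (8.79%) had an unadjusted p under 0.05, and DESeq2 called 360 genes (2.27%), 1 of them a member. The log2 difference was below 0 for 5 members and above 0 for 4. In counts scaled to library size, Spib, Cd209a and Zbtb46 were low in aged 1, 2, 4 and 5 and high in aged 3. Batf3 was far above every other library in aged 1 and aged 2. Siglech, Tcf4 and Clec9a had log2 differences of -0.39 (SE 0.32), 0.17 (0.23) and 0.10 (0.26). Those of Spib and Batf3, which also encode factors that a dendritic cell type needs, were -1.07 (SE 0.58) and 3.63 (1.04).

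Library totals ran from 19804883 to 23548594 estimated counts. Young 4, aged 3 and aged 4 stood apart: 6.02% to 6.91% of their counts came from ribosomal protein genes, against 3.12% to 3.38% in the other 6. This set was known from earlier results on these data, and the result of each member is therefore also given without those 3 libraries. Xist had 7909 to 21724 counts in aged 1 to 4 and 1 to 9 counts in the other 5 libraries, while the Y-linked gene Ddx3y had 0 counts in aged 1 to 4 and 888 to 1721 in the others. Thus 5 libraries went against the stated sex, and age and sex-chromosome content cannot be told apart except through aged 5. Levels below are counts scaled to library size (CPM, with TMM factors), and a log2 difference is always aged over young. Each library counts as 1 mouse, as the labels state, and with 4 against 5 libraries the exact permutation test of a single gene can give no p below 0.00794.

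All 9 members had counts in every library and passed the filter on low counts. Levels of different genes can be compared only per length, and for that the authors' TPM, a length-corrected share of transcripts, were used. Over the 4 young libraries mean TPM was highest for Spib at 32.6 ± 14.6 (SD), followed by Tcf4 at 15.5 ± 6.91, Siglech at 11.6 ± 7.09 and Clec10a at 9.33 ± 1.88. Cd209a (4.01 ± 1.29), Clec9a (4.01 ± 2.26), Cd300c (3.48 ± 0.781), Zbtb46 (3.37 ± 1.04) and Batf3 (1.62 ± 0.893) followed, also in TPM. Apart from the steps from Spib to Tcf4, from Clec10a to Cd209a and from Zbtb46 to Batf3, neighbours in this order were closer than the larger of their SDs. Young 4 had the lowest TPM of the young libraries for Siglech, Tcf4, Spib, Cd300c, Cd209a, Clec9a and Zbtb46. In CPM it was the lowest young library for Siglech, Spib and Clec9a alone. For the members, the text below gives the TPM that change a statement on the order of libraries.

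**Figure D1:**
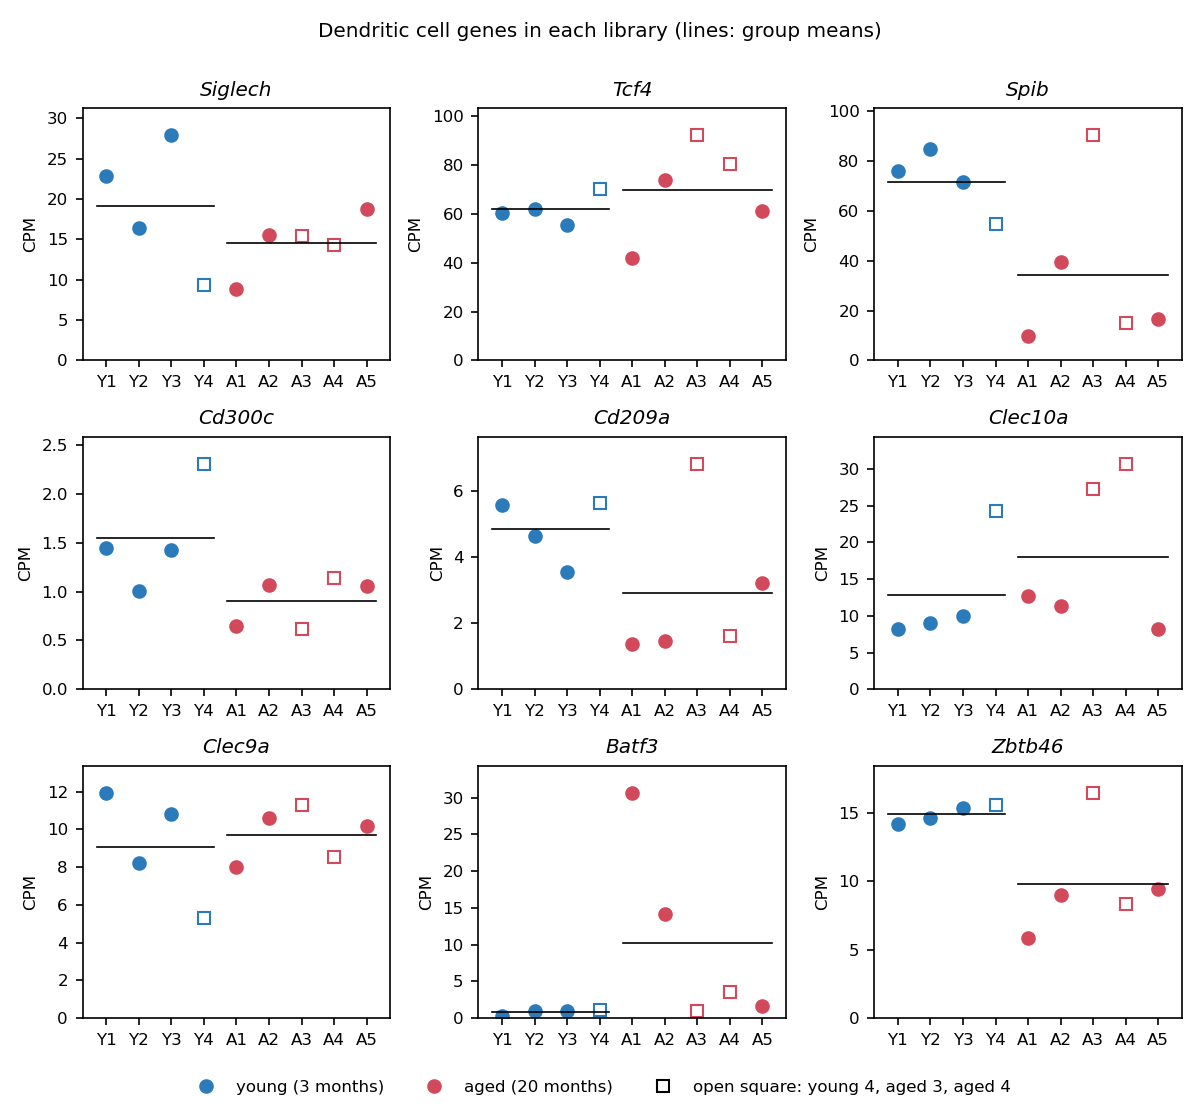
Level of each of the 9 genes in every library, in CPM with TMM factors on a linear axis from 0, for young mice (blue) and aged mice (red), with open squares for young 4, aged 3 and aged 4. Batf3 reached 30.7 and 14.1 CPM in aged 1 and aged 2 against at most 3.53 elsewhere, and Spib and Zbtb46 in aged 3 lay at the top of the young range or above it.

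Promoters are shown for 4 members, Siglech as the plasmacytoid marker and Spib, Zbtb46 and Batf3 as the genes with the widest spread or the sharpest pattern between libraries. Each is the RefSeq window of 250 bases before to 50 after the start on GRCm38.p6, read 5′ to 3′ on the strand of the gene, and 7 of the 9 members had one in the table. Capitals mark matches, on either strand, to 3 short motifs: the E-box CACCTG of the kind TCF4 binds, the PU-box GAGGAA of the kind SPI-B binds, and TGANTCA, the AP-1 element that BATF family dimers bind.
Siglech, chr7:55767934-55768233, + strand: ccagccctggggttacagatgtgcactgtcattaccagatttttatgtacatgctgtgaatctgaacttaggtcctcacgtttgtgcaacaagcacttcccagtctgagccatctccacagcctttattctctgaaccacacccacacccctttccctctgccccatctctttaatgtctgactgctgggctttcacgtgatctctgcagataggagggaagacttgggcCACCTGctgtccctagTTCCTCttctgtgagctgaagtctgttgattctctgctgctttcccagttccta
Spib, chr7:44532022-44532321, - strand: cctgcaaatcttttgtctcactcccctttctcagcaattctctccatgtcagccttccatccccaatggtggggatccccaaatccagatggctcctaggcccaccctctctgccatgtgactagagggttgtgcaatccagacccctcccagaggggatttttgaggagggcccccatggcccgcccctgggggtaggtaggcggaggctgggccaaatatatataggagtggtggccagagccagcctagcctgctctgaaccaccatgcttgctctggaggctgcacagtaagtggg
Batf3, chr1:191098164-191098463, + strand: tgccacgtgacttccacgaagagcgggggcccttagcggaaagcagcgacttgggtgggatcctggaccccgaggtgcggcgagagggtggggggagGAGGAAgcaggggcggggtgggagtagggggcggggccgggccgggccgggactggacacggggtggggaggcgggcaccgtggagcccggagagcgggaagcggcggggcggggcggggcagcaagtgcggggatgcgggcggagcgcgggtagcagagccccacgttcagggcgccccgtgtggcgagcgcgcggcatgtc
Zbtb46, chr2:181424339-181424638, - strand: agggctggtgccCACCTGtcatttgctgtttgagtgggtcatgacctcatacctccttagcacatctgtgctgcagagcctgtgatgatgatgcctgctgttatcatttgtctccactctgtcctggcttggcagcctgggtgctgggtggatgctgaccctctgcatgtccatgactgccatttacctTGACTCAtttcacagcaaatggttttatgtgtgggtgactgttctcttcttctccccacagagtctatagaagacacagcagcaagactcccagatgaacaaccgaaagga

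The Siglech window held an E-box starting at position -20 from the start site and a PU-box at -4. Zbtb46 held an E-box at -238 and an AP-1 element at -61, and Batf3 held a PU-box at -153 in a window of 75.7% G and C. The bases just before the Zbtb46 start, a run of c and t ending in cag, read like the end of an intron. Whether transcription starts there was not tested. The Spib window had none of the 3 motifs, nor had those of Cd209a and Clec9a, while Cd300c had an E-box at -67. Such matches are common: of 32851 promoters of the same length, 20.2% held the E-box, 28.3% the PU-box and 7.81% the AP-1 element. A match describes the letters only, and binding was not measured here.

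Siglech encodes Siglec-H, the surface lectin used to recognise mouse plasmacytoid dendritic cells. Its level was 22.9, 16.4, 27.9 and 9.30 CPM in young 1 to 4 and 8.84, 15.6, 15.4, 14.3 and 18.8 CPM in aged 1 to 5. The highest values were those of young 1 and young 3, but young 4 lay below 4 of the 5 aged libraries, so the groups overlapped. In TPM young 4, at 2.42, lay below all 5 aged libraries, which had 4.76 to 12.72. Mean levels were 19.1 ± 8.08 (SD, n = 4) and 14.6 ± 3.61 CPM (n = 5), a log2 difference of -0.39 (SE 0.32; edgeR adjusted p = 0.932), and the exact two-sided permutation p was 0.405. Without young 4, aged 3 and aged 4 the difference was -0.63, and within those 3 libraries, with 1 young one, it was 0.73. Against aged 5 alone, the only aged library with Y-linked transcripts, it was -0.03.

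Tcf4 encodes the E protein E2-2, which commits progenitors to the plasmacytoid lineage and keeps mature cells in it. Young 1 to 4 had 60.2, 61.9, 55.3 and 70.3 CPM, and aged 1 to 5 had 41.8, 73.7, 92.1, 80.4 and 61.2 CPM. Aged libraries held both the lowest value and the 3 highest, and in TPM the order was different, with young 4, aged 3 and aged 4 the lowest of the 9 at 5.18, 7.77 and 9.33. Mean levels were 61.9 ± 6.22 (SD, n = 4) and 69.9 ± 19.3 CPM (n = 5), and the log2 difference was 0.17 (SE 0.23; edgeR adjusted p = 1.00). The permutation test over the 9 libraries, exact and two-sided, gave p = 0.611. In the 6 libraries left after setting aside young 4, aged 3 and aged 4 the log2 difference was 0.01, and against aged 5 alone -0.01.

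Spib encodes the ETS factor SPI-B, which acts in plasmacytoid dendritic cells and in B cells. It stood at 75.9, 84.7, 71.7 and 54.8 CPM in young 1 to 4. Aged 1 to 5 had 9.84, 39.3, 90.3, 15.2 and 16.5 CPM. Aged 1, 2, 4 and 5 lay below every young library, and aged 3 lay above all of them. The TPM also put aged 1, 4 and 5 below every young library, at 6.51, 4.37 and 8.34 against 10.86 to 42.14, but aged 3 at 20.34 then lay under young 1 to 3. Mean levels were 71.8 ± 12.6 (SD, n = 4) and 34.2 ± 33.3 CPM (n = 5), a log2 difference of -1.07 (SE 0.58; edgeR adjusted p = 0.705; exact permutation p = 0.0873). The difference was -1.83 without aged 3 (edgeR adjusted p = 0.135) and -1.81 in the 6 libraries without young 4, aged 3 and aged 4 (edgeR adjusted p = 0.0898). It was 0.02 within those 3 libraries and -2.12 against aged 5 alone.

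As a sum, B cell markers were likewise lowest in aged 1, 4 and 5 and highest in aged 3, but not every marker had this order. The summed level of 10 B cell markers was 395 to 466 CPM in the young libraries and 81.7, 277, 617, 146 and 189 CPM in aged 1 to 5. None of the 10 was above 0 in log2 difference, their median was -0.83, and none passed edgeR's test across all genes. Blk, a kinase of B cell receptor signalling, had 17.0 ± 0.501 CPM in young and 8.62 ± 6.66 CPM in aged mice, and Fcer2a, the low-affinity IgE receptor of B cells, had 10.9 ± 2.99 and 4.51 ± 4.38 CPM. In aged 3 Blk was the highest of the 9 libraries at 19.4 CPM. Fcer2a in aged 3, at 8.03 CPM, lay below young 1 to 3 and below aged 5 at 10.4 CPM. Among the 14830 genes of at least 1 CPM, those most like Spib over the 9 libraries by Pearson r of log2 CPM were Lef1 (0.990), Cplx2 (0.990), Dpp4 (0.974) and Slc12a3 (0.972), a comparison added after the values were seen. How much of the Spib signal came from B cells was not tested.

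Over the 3 plasmacytoid members the median log2 difference was -0.39, with 1 above 0 and 2 below, beside a median of 0.03 over all genes tested, of which 53.5% were above 0. For Siglech the 4 genes of nearest pattern were Lgalsl (r = 0.954), Kmo (0.932), Scml2 (0.925) and Gm36723 (0.914), measured over the same 9 libraries, which share their scaling.

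**Figure D2:**
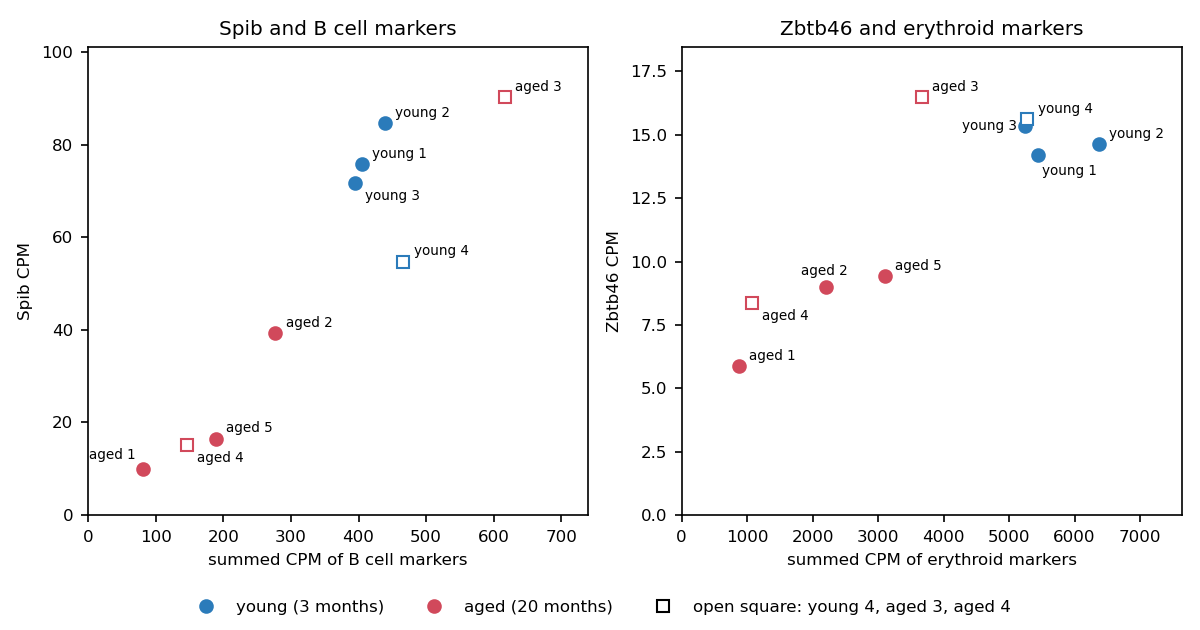
Spib against the summed level of 10 B cell markers (left) and Zbtb46 against the summed level of 6 erythroid markers (right), both in CPM, with 1 point per library, blue for young, red for aged and open squares for young 4, aged 3 and aged 4. Aged 1 and aged 4 lay at the low end of both panels, and aged 3 had the highest Spib and B cell sum.

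A list of 11 other plasmacytoid genes gave no common direction: 6 were above 0 and 5 below, with a median log2 difference of 0.12, and none passed. Bcl11a, a transcription factor needed for both B cells and plasmacytoid dendritic cells, was 49.3 to 51.4 CPM in the young libraries and 32.7 to 35.2 CPM in aged 1, 2, 4 and 5, with 53.6 CPM in aged 3 (log2 difference -0.41, SE 0.18; edgeR adjusted p = 0.572). Bst2, which encodes the interferon-inducible tetherin, and Cox6a2, a mitochondrial subunit, were highest in the 3 libraries that stood apart. Bst2 was 66.8, 78.6 and 100.1 CPM there and 24.4 to 43.1 CPM elsewhere, and Cox6a2 was 88.5, 73.4 and 154 against 20.9 to 70.2 CPM. Of all genes tested, 20% were higher in each of those 3 libraries than in each of the other 6, so this pattern was common. Tlr9, the sensor of CpG DNA, had the opposite one, with 0.779 to 1.36 CPM in the 3 libraries and 14.2 to 30.2 CPM in the others.

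Cd300c encodes a surface receptor of the CD300 family that can activate myeloid cells. Its counts were low, 10 to 38 a library, which limits the precision of each value. It had 1.44, 1.01, 1.43 and 2.31 CPM in young 1 to 4 and 0.647, 1.07, 0.613, 1.14 and 1.05 CPM in aged 1 to 5. Young 2 lay within the aged range, and the other 3 young libraries above it. In TPM young 4, at 2.80, was instead the lowest young library and lay under aged 2 at 3.06 and aged 5 at 3.07. Mean levels of 1.55 ± 0.547 and 0.905 ± 0.253 CPM gave a log2 difference of -0.76 (SE 0.39; edgeR adjusted p = 0.680), and the exact permutation p was 0.0635. Without young 4, aged 3 and aged 4 the difference was -0.48, and within them -1.34. Against aged 5 alone it was -0.54.

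Cd300e, a relative of Cd300c that non-classical monocytes carry, had a different pattern. It was 231 and 106 CPM in aged 1 and aged 2 and 0.204 to 2.71 CPM in the other 7 libraries. The log2 difference was 5.81 (edgeR adjusted p = 0.341), and once the fit allowed for the set of 3 libraries it was 6.07 (edgeR adjusted p = 0.0455). Under that fit 319 of all genes tested passed (1.92%), and no member did. Of 15 tested relatives of the members, Tcf3, which encodes an E protein like TCF4, was the other one to pass there: it fell from 140 ± 15.3 to 83.4 ± 15.4 CPM (log2 difference -0.78; edgeR adjusted p = 0.0405), with no overlap between the groups.

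Cd209a encodes a mouse counterpart of DC-SIGN, a lectin of cDC2 and of dendritic cells derived from monocytes. Its counts were low, 31 to 146 a library. The level was 5.55, 4.62, 3.53 and 5.64 CPM in young 1 to 4 and 1.38, 1.47, 6.80, 1.61 and 3.20 CPM in aged 1 to 5. As for Spib, aged 1, 2, 4 and 5 lay under all young libraries and aged 3 over all of them. In TPM aged 3, at 4.53, lay between young 1 at 5.57 and young 2 at 4.51, and aged 5 at 3.17 lay above young 4 at 2.65. Mean levels of 4.83 ± 0.985 and 2.89 ± 2.31 CPM gave a log2 difference of -0.74 (SE 0.50; edgeR adjusted p = 0.844; exact permutation p = 0.103). It was -1.33 without aged 3 (edgeR adjusted p = 0.160), -1.17 without the 3 libraries apart (edgeR adjusted p = 0.129), -0.35 within them and -0.59 against aged 5 alone.

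The genes most like Cd209a over the 9 libraries were 2610027K06Rik (r = 0.989), Gm38287 (0.981), Dtl (0.974) and Usp7 (0.967), and their r over the 6 libraries outside the set was 0.955 to 0.980. Dtl acts in the degradation of replication factors and Usp7 is a deubiquitinase.

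Clec10a encodes the galactose-type lectin MGL1 (CD301a), found on cDC2 and macrophages. Young 1 to 4 had 8.17, 9.06, 10.04 and 24.3 CPM and aged 1 to 5 had 12.6, 11.4, 27.3, 30.7 and 8.21 CPM. The 3 highest values belonged to young 4, aged 3 and aged 4, a pattern shared by 20% of all genes tested. That order rested on the scale, since the TPM of the 3 libraries, 10.25, 12.26 and 20.92, lay among the 7.41 to 18.97 of the other 6, aged 4 alone above them. Means of 12.9 ± 7.65 and 18.1 ± 10.2 CPM gave a log2 difference of 0.49 (SE 0.48; edgeR adjusted p = 0.978; exact permutation p = 0.365). The difference was 0.25 without the 3 libraries, 0.31 within them and -0.64 against aged 5 alone. The estimated counts of Clec10a were not whole numbers in 4 libraries.

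Of 8 other cDC2 genes 7 could be tested, and 6 of those were above 0, with a median log2 difference of 0.33 and none past the test. Klf4, a transcription factor of monocytes and of some cDC2, was 23.3 to 28.0 CPM in young and 31.0 to 45.3 CPM in aged mice without overlap (log2 difference 0.55, SE 0.17; edgeR adjusted p = 0.351). Sirpa, the inhibitory receptor that marks cDC2 and other myeloid cells, was 322 ± 38.0 and 399.7 ± 88.5 CPM (0.31; edgeR adjusted p = 0.855). Ltbr, the lymphotoxin receptor, was 27.8 ± 2.93 and 39.1 ± 8.41 CPM (0.49; edgeR adjusted p = 0.510). Groups that did not overlap were seen for 1.67% of all genes tested with the aged group higher and for 2.76% with it lower.

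Clec9a encodes DNGR-1, the receptor with which cDC1 recognise actin filaments of dead cells. It measured 11.9, 8.24, 10.8 and 5.30 CPM in young 1 to 4 and 8.02, 10.6, 11.3, 8.52 and 10.2 CPM in aged 1 to 5. The aged values lay inside the young range, and young 4 was the lowest of the 9. Mean levels were 9.08 ± 2.96 (SD, n = 4) and 9.72 ± 1.39 CPM (n = 5), a log2 difference of 0.10 (SE 0.26; edgeR adjusted p = 1.00), and the exact permutation p was 0.627. Its sign turned without young 4 (-0.09) and without the 3 libraries apart (-0.10), and within those 3 libraries it was 0.96. Against aged 5 alone it was 0.16. In GENCODE M21 exons of Clec9a overlap those of Clec1b on the same strand. Clec1b, which encodes the platelet receptor CLEC-2, had 750.5 to 3056 counts a library, and 8 of the 9 Clec9a counts were not whole. Its level was 141 to 159 CPM in young 4, aged 3 and aged 4 and 34.3 to 59.0 CPM in the others, and the part of shared reads in the Clec9a level was not tested.

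In the same search by likeness, Alcam (r = 0.933), Mmrn1 (0.930), Gucy1b1 (0.921) and Ccdc8 (0.920) had the pattern nearest to Clec9a over the 9 libraries. Over the 6 libraries outside the set their r was lower, from 0.725 for Alcam to 0.889 for Gucy1b1. Mmrn1 and Gucy1b1 are genes of platelets and their precursors as well as of endothelium or smooth muscle.

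Batf3 encodes the basic leucine zipper factor without which cDC1 do not develop, and it was the member that differed most between libraries. Young 1 to 4 had 0.304, 1.01, 0.924 and 1.09 CPM. Aged 1 and aged 2 had 30.7 and 14.1 CPM, from 711 and 318 counts, while aged 3, 4 and 5 had 0.981, 3.53 and 1.66 CPM. Aged 3 lay within the young range and the other 4 aged libraries above it. In TPM the same 2 libraries led, with 110.26 and 36.74 against 0.70 to 4.81. Mean levels were 0.830 ± 0.357 (SD, n = 4) and 10.2 ± 12.6 CPM (n = 5), so the aged SD was larger than the aged mean. The log2 difference was 3.63 (SE 1.04; edgeR adjusted p = 0.322), with an exact permutation p of 0.0635.

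The call for Batf3 depended on the tool. DESeq2 on the same counts gave 3.65 with an adjusted p of 0.00473, and 360 of the 15889 genes with an adjusted p in DESeq2 passed (2.27%). In the authors' deposited table the log2 fold change was 3.66 and the adjusted p 0.00386, and Batf3 was the single member under 0.05 there. Of all 56980 rows of the authors' deposited table, which include genes without a count, 300 were under 0.05 (0.527%). With edgeR it was 4.40 without young 4, aged 3 and aged 4 (edgeR adjusted p = 0.0789), and 3.46 once the fit held the library set (edgeR adjusted p = 0.0989). Leaving out aged 1 and aged 2 together, an alternative added after the values were seen, gave 1.31 (edgeR adjusted p = 0.824). The log2 difference was 1.01 against aged 5 alone and 1.09 within the 3 libraries apart.

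Aged 1 and aged 2 were also high for genes of other cells, myeloid cells among them. In these libraries Itgax, which encodes CD11c of dendritic cells and some monocytes and macrophages, was 239 and 155 CPM against 10.7 to 20.5 CPM in the other 7. Fcgr4 and Clec4a3, genes of non-classical monocytes, had 844 and 383 CPM against 22.6 to 115 CPM, and 223 and 107 CPM against 15.9 to 39.3 CPM. Both libraries exceeded the highest other library at least 4 times for 25 genes (0.151%), with Batf3 the last of them at a ratio of 4.00 and Cd300e first at 39.1. Aged 1 and aged 2 were singled out after the values were seen, so this share does not measure how rare the Batf3 pattern is. Fcrl5 (23.9) and the immunoglobulin segment Igkv4-50 (16.9), genes of the B cell lineage, were among the 25, and Fcgr4 and Clec4a3 were not. By r over the 9 libraries, in a search added after the values were seen, Batf3 was most like Clec4a3 (0.975), Arhgap22 (0.973), P2ry6 (0.969) and Fcgr4 (0.966). Clec9a was 8.02 and 10.6 CPM in aged 1 and aged 2, inside the range of the young libraries. Xcr1, the chemokine receptor that defines cDC1, was 2.42 and 1.47 CPM there and 0.336 to 1.10 CPM elsewhere. Its counts were low, 7.88 to 56.3 a library.

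**Figure D3:**
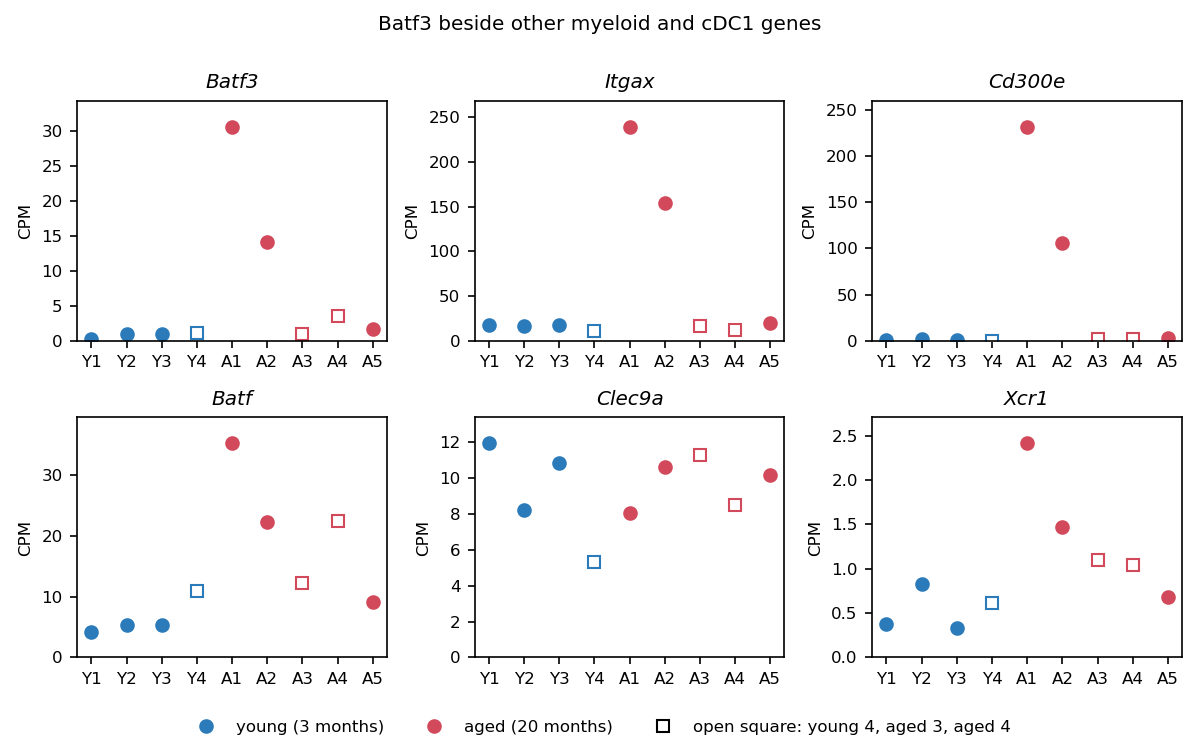
Levels in CPM, on linear axes from 0, of Batf3, Itgax, Cd300e, Batf, Clec9a and Xcr1 in young 1 to 4 (Y1 to Y4, blue) and aged 1 to 5 (A1 to A5, red), with open squares for young 4, aged 3 and aged 4. Batf3, Itgax, Cd300e and the cDC1 gene Xcr1 were highest in aged 1 and aged 2, with Xcr1 at 2.42 and 1.47 CPM from low counts. Clec9a in those libraries was 8.02 and 10.6 CPM, within the young range of 5.30 to 11.9.

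Of the monocyte list 8 of 8 genes had a log2 difference above 0, with a median of 0.72. Its summed level was 1297 to 1817 CPM in young and 1727 to 2814 CPM in aged libraries. None passed with age as the only term, and Ly6c2 and Fcgr1 passed with the library set as a term (edgeR adjusted p = 0.0405 and 0.0471). Ly6c2, of classical monocytes, had 448 ± 59.3 and 828 ± 129.9 CPM in young and aged mice, and Fcgr1, an Fc receptor, 11.3 ± 2.16 and 25.4 ± 7.13 CPM. Of 8 macrophage genes 4 were above 0, with a median of 0.35 and none passed. In aged 1 and aged 2 the list was split: 3 of the 8 genes, Adgre1, C1qa and C1qb, were above the other 7 libraries in both, and 3, Cd163, Mrc1 and Vcam1, were below all young libraries. C1qb, a complement subunit, was 558 and 327 CPM there and 69.6 to 185 CPM in the other 7, while Mrc1, the mannose receptor, was 47.4 and 81.5 CPM against 96.4 to 138 CPM in young mice. Vcam1 was 117 and 186 CPM against 262 to 365 CPM, and Cd163 8.33 and 13.4 CPM against 23.2 to 38.1 CPM. Adgre1, Cd163, Mrc1 and Vcam1 were named after their values were seen. The part of monocytes and macrophages in the Batf3 signal was not tested.

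Batf, the close relative of Batf3 in lymphocytes and myeloid cells, was 4.22, 5.31, 5.29 and 10.9 CPM in young 1 to 4 and 35.2, 22.3, 12.3, 22.5 and 9.08 CPM in aged 1 to 5. Young 4 lay above aged 5, which was the one overlap between the groups (log2 difference 1.66, SE 0.44; edgeR adjusted p = 0.299). T and NK cell genes were above 0 for 7 of 8 with a median of 0.88. Cd3g (3.36 ± 0.442 and 10.9 ± 4.49 CPM in young and aged; edgeR adjusted p = 0.0405), Trac (3.20 ± 0.430 and 7.63 ± 2.57 CPM; 0.0496) and Cd8a (3.22 ± 0.905 and 9.34 ± 2.51 CPM; 0.0405) passed with the library set as a term. Plasma cell genes were above 0 for 6 of 6 with a median of 1.22, and Xbp1 (98.5 ± 10.3 and 249 ± 43.5 CPM) and Prdm1 (4.07 ± 1.10 and 16.1 ± 7.77 CPM) passed in that fit, both with an edgeR adjusted p of 0.0405.

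Other cDC1 genes were above 0 for 6 of 9, with a median log2 difference of 0.36 and none past the test. Naaa, which encodes a lysosomal amidase, was 36.8 to 48.2 CPM in young and 50.8 to 106 CPM in aged mice without overlap (0.82, SE 0.23; edgeR adjusted p = 0.320). Xcr1 had 0.538 ± 0.226 and 1.34 ± 0.663 CPM (1.32, SE 0.50; edgeR adjusted p = 0.466). Tlr3, the sensor of double-stranded RNA, had 2.46 ± 0.587 and 4.38 ± 1.71 CPM (0.83, SE 0.36; edgeR adjusted p = 0.545). Of this list Xcr1, Cadm1, Tlr3 and Wdfy4 were highest in aged 1 and aged 2, and Irf8, Itgae, Naaa, Id2 and Nfil3 were not.

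Zbtb46 encodes a zinc finger factor of conventional dendritic cells and their committed precursors, which plasmacytoid cells and monocytes lack. The young libraries were close together at 14.2, 14.6, 15.4 and 15.6 CPM, and aged 1 to 5 had 5.87, 8.98, 16.5, 8.36 and 9.42 CPM. Aged 1, 2, 4 and 5 were all below 10 CPM and aged 3 was above every young library. On the TPM scale aged 3 was lower, at 2.22 against 3.66 to 4.03 in young 1 to 3 and 1.82 in young 4. Aged 1, 2 and 5, at 1.97, 2.26 and 2.83 TPM, also lay above young 4. Means of 14.96 ± 0.644 and 9.82 ± 3.97 CPM gave a log2 difference of -0.61 (SE 0.28; edgeR adjusted p = 0.581). The exact permutation p was 0.0476 before adjustment for the 9 members tested in this way. In edgeR its unadjusted p was 0.0531, and 8.79% of all genes tested had an unadjusted edgeR p under 0.05. The difference was -0.87 without aged 3 (edgeR adjusted p = 0.135), -0.86 without the 3 libraries apart (edgeR adjusted p = 0.0755), -0.26 within them and -0.67 against aged 5 alone.

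Erythroid genes were low in the same aged libraries. Their summed level over 6 markers, Epor, Slc4a1 and Ermap among them, was 5242 to 6366 CPM in young mice and 875, 2198, 3662, 1069 and 3106 CPM in aged 1 to 5. All 6 were below 0, with a median log2 difference of -1.20, and none passed edgeR's test. Ermap was 491 ± 51.9 CPM in young and 202 ± 97.8 CPM in aged mice without overlap. Over the 9 libraries Zbtb46 was most like Gm9895 (r = 0.989), Mylk3 (0.985), Klf1 (0.984), a master regulator of red cell genes, and Isg20 (0.982), again in a search added after the values were seen. Endothelial genes, another source of Zbtb46, were above 0 for 4 of 6 with a median of 0.20, and Pecam1 was 69.5 ± 5.01 and 98.2 ± 29.6 CPM. The part of erythroid cells in the Zbtb46 level was not tested.

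With aged 3 set aside, the aged CPM of Spib, Cd209a and Zbtb46 all lay below the lowest young value. Those of Batf3 lay above the highest young value. In TPM the groups still overlapped for Spib, Cd209a and Zbtb46. Over all genes tested, in CPM, 5.54% were lower without overlap and 3.43% were higher once aged 3 was left out. Aged 3 was the library where Spib, Cd209a, Zbtb46 and Batf3 departed from the other aged ones. These shares therefore do not measure how rare the pattern is. With all 9 libraries the groups overlapped for each of the 9 members. Among the aged libraries aged 3 was also the one with the highest B cell sum, 617 CPM, and the highest erythroid sum, 3662 CPM. That erythroid sum was still below the 5242 to 6366 CPM of the young libraries.

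Neither the plasmacytoid nor the conventional members all lay on the same side of 0. The 5 conventional members had a median log2 difference of 0.10, with 3 above 0 and 2 below, and a range from -0.74 for Cd209a to 3.63 for Batf3. The plasmacytoid median of -0.39 became -0.63 without young 4, aged 3 and aged 4 and 0.36 within them. The conventional median was -0.10 and 0.31 in the same subsets. As a measure that needs no scaling between libraries, the ratio of Siglech to Clec9a counts was 1.92, 1.99, 2.58 and 1.76 in young 1 to 4 and 1.10, 1.46, 1.36, 1.68 and 1.84 in aged 1 to 5. Young 4 and aged 5 crossed, so the groups overlapped, and exons of Clec9a overlap Clec1b as described above.

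**Figure D4:**
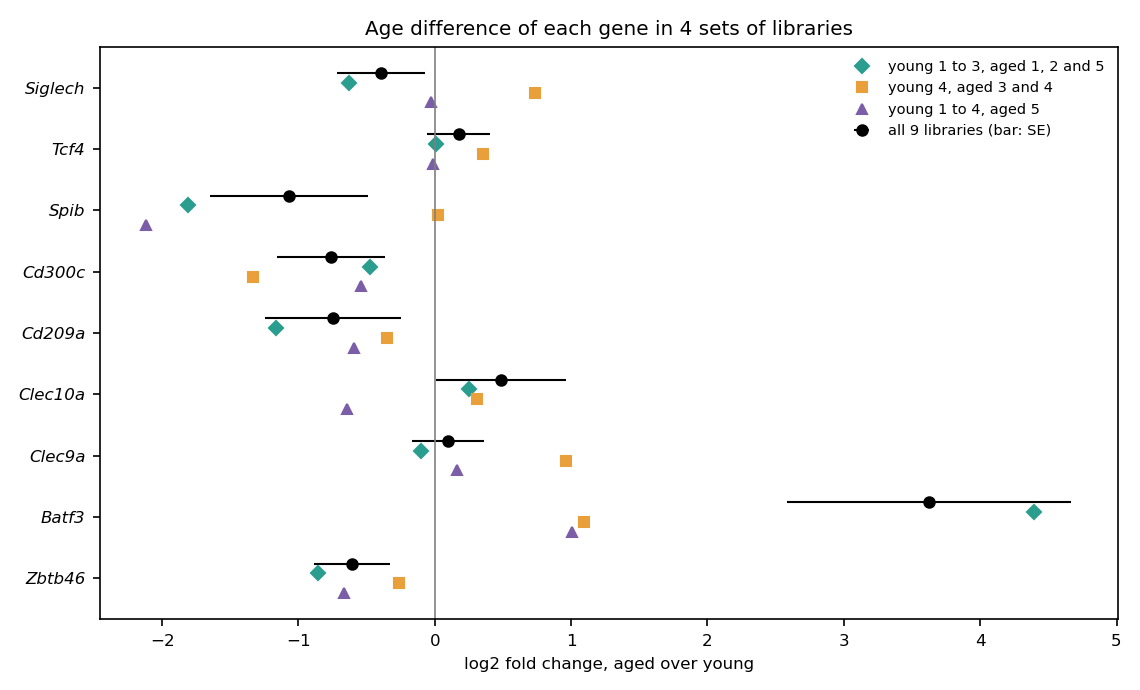
Log2 fold change, aged over young, of each member in all 9 libraries (black circles, bar: 1 standard error), in young 1 to 3 against aged 1, 2 and 5 (green diamonds), in young 4 against aged 3 and 4 (orange squares) and in young 1 to 4 against aged 5 (purple triangles). Spib ran from -2.12 against aged 5 alone to 0.02 within the 3 libraries apart, and Batf3 from 1.01 to 4.40.

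Whether the age difference itself depended on the library set was tested as an interaction over all genes, in which 2 genes passed (0.0121%) and no member did. Unadjusted p-values from edgeR were 0.0456 for Siglech and 0.0405 for Clec9a, and the adjusted p of every member was 0.925 or more. Only 1 young library was in the set, and it was assumed to vary like the others. In the 6 other libraries 2 genes passed (0.012%), neither of them a member.

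Genes of dendritic cell maturation and development were read from 2 further lists. Of 9 maturation genes 7 could be tested, 6 of them above 0 with a median of 0.19. Ccr7, which guides mature dendritic cells and T cells to lymph nodes, went the other way at 7.29 ± 1.36 and 3.99 ± 2.65 CPM, with 1.04 CPM in aged 1 and 8.09 CPM in aged 3 (log2 difference -0.87, SE 0.48; edgeR adjusted p = 0.716). Relb, an NF-kB subunit of mature dendritic cells, was 9.19 ± 0.729 and 12.7 ± 3.86 CPM (0.47; edgeR adjusted p = 0.694), and Cd83 was 11.4 ± 1.03 and 14.9 ± 5.40 CPM (0.39; edgeR adjusted p = 0.868). Of 9 development genes 6 were above 0, with a median of 0.34. Itgax led them at a log2 difference of 2.51 (edgeR adjusted p = 0.433), carried by aged 1 and aged 2, and Stat3, which relays FLT3 signals, was 136 ± 22.3 and 196 ± 66.5 CPM (0.53; edgeR adjusted p = 0.723). Dpp4, which encodes CD26, was 22.7 ± 4.10 and 14.5 ± 8.25 CPM (-0.65; edgeR adjusted p = 0.742). No gene of either list passed the test.

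**Figure D5:**
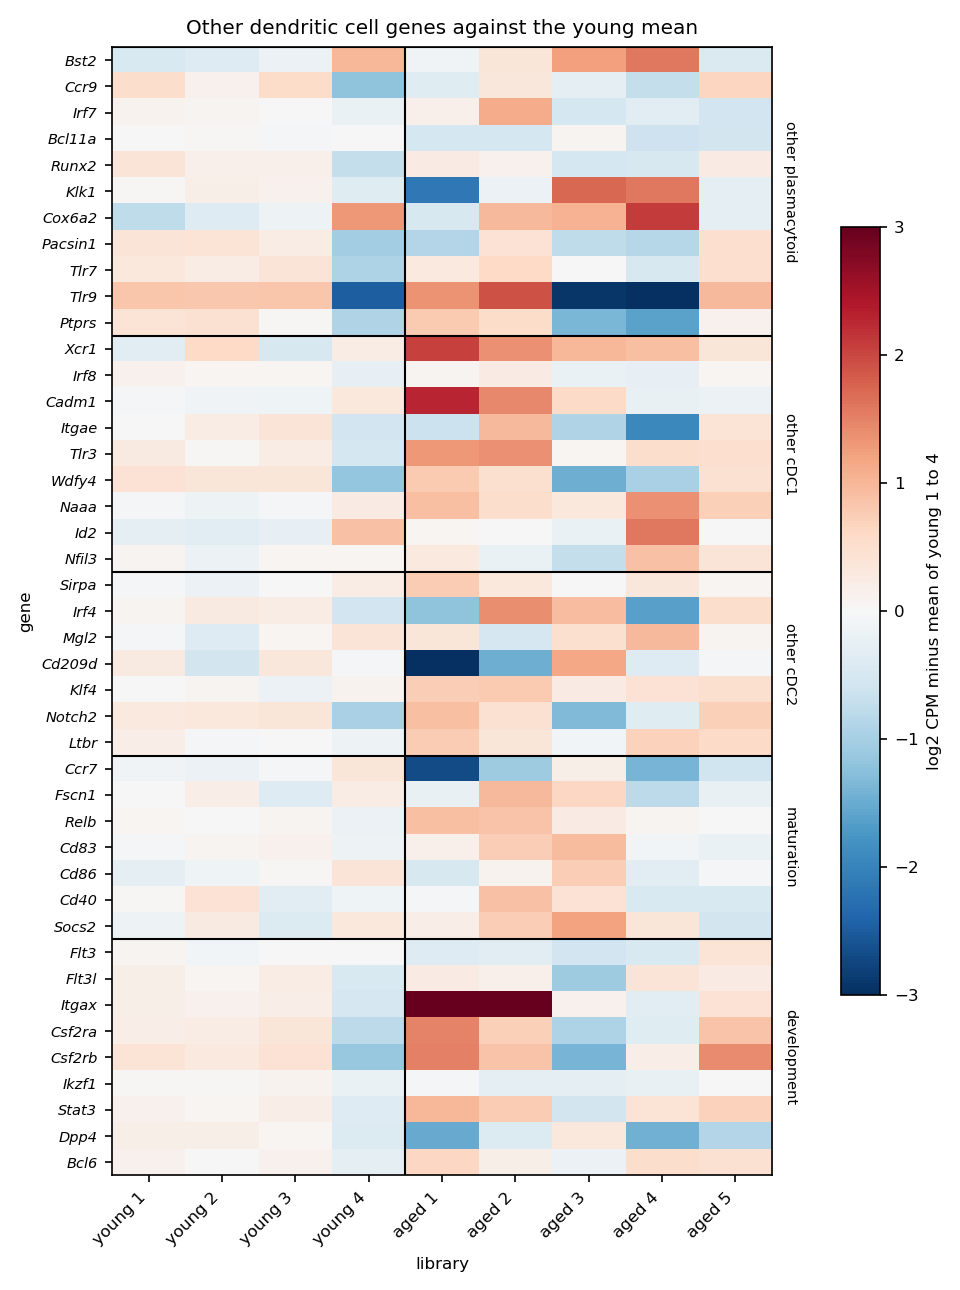
Log2 CPM of 43 other dendritic cell genes in each library minus the mean of young 1 to 4 (red: higher, blue: lower, colours cut at 3 in both directions), grouped by list and with a vertical line between young and aged libraries. Itgax in aged 1 and aged 2 is the strongest red, and Tlr9 is blue in young 4, aged 3 and aged 4.

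Neutrophil genes, which make up much of bone marrow RNA, were above 0 for 6 of 8 with a median of 0.11, and Mpo was 1494.9 ± 247 and 1852 ± 721 CPM. Stromal and osteoblast genes were below 0 for 6 of 6 with a median of -1.17, and Cxcl12, a chemokine of marrow stroma that holds dendritic cell progenitors in the marrow, was 1263 ± 38.0 and 784 ± 188 CPM without overlap (log2 difference -0.69; edgeR adjusted p = 0.404). Col1a2, a collagen gene of osteoblasts and other stromal cells, was 128 to 2771 CPM over the 9 libraries.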

How the data were processed

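Bulk RNA libraries of 4 young and 5 aged mice were read from 1 deposited table, and groups came from the labels. The count columns, as deposited, hold estimated counts, judged from their fractional values, with no scaling between libraries, and they were rounded for the tests. The deposited TPM, per the file headers, were used to order genes by level and, as log2(TPM + 1), in an added alternative with limma-trend. The authors' deposited log2 fold changes and p-values were made with DESeq2, as the name of the deposited table says, with settings not given in the sources used here. Bowtie 0.12.2 and the build mm8 are named in the submitters' processing notes without a role, so no coordinates of the files were used.

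The main test was edgeR 4.0.16 in R 4.3.3 (quasi-likelihood, group as the only term, TMM factors, minimum count 10 and total 15, two-sided), with Benjamini-Hochberg adjustment over 16576 genes and a threshold of 0.05. On simulated counts this test called 0 of 99 genes changed 2-fold, 53 of 98 changed 4-fold and 3 of 15976 unchanged genes. A gene that was not called could therefore still differ 2-fold. Standard errors are the log2 difference over the root of F. Printed levels are CPM with TMM factors ± SD, and exact permutation tests used log2 CPM with a prior count of 2 over all 126 arrangements of the libraries, unadjusted. DESeq2 1.42.0 and limma 3.58.1 gave alternatives. Depth was similar in all libraries, and counting error is part of the fitted dispersion.

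The members, the 15 other gene lists and the set of young 4, aged 3 and aged 4 were chosen with earlier results of these data known. Named are all 9 members, from each list any gene past the threshold with or without the library set as a term and up to 3 with the smallest p, and for Siglech, Clec9a and Cd209a the 4 genes of highest r. A gene this rule names is not reported here. Tlr9, Fcgr4, Clec4a3, Clec1b and the genes most like Spib, Batf3 and Zbtb46 were added after their values were seen. Same-numbered libraries share only a number in the labels, and every pair of libraries differed beyond counting noise (chi-square per gene 16.7 for the nearest pair, young 1 and young 3). Promoters are RefSeq windows on GRCm38.p6.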

Additional observations from a re-analysis of the deposited data

Results flagged for a closer look

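In 11 of 108 groups of 4 or 5 libraries, 1 library of the group lay far from the rest, while chance alone flags about 1 in 20 groups. Of the 18 groups of members, 1 was among them: Clec10a was 24.3 CPM in young 4, with a gap to the next young library of 0.885 of the range. Young 4 was also far above the other young libraries for Bst2 (66.8 CPM), Cox6a2 (88.5 CPM), Batf (10.9 CPM), C1qa (223 CPM) and C1qb (148 CPM), and below them for Itgax (10.7 CPM). Aged 3 was far above the other aged libraries for Bcl11a (53.6 CPM), Timd4 (17.7 CPM) and Bglap (79.0 CPM), and aged 2 for Xbp1 (324 CPM). Young 4 and aged 3 belong to the 3 libraries with a high share of ribosomal protein counts, and the part of that difference in these values was not tested.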

How the results depend on the processing

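Over 22 alternatives, the 198 values of single members kept their direction and their side of the threshold in 191, reversed in 6 and passed the threshold in 1, Batf3 under DESeq2 (3.65, adjusted p = 0.00473; its adjusted p over the alternatives ranged up to 1.00). Reversed were Clec9a without young 4 (-0.089) and in the 6 libraries outside the set (-0.10), Siglech (0.73) and Spib (0.025) within young 4, aged 3 and aged 4, and Tcf4 (-0.014) and Clec10a (-0.64) against aged 5 alone. The cause was not tested.

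Genes called, 0 with edgeR as reported, numbered 360 with DESeq2 (1 member), 319 with the library set as a term, 14 within the 3 libraries, 2 in the other 6, 1 against aged 5 alone, and 0 to 6 when each library was left out in turn, the 6 without aged 5. The lone library of an arm was assumed to vary like the other group. Members called stayed at 0 when each library was left out. The plasmacytoid median ran from -0.62 to -0.16 and the conventional one from -0.09 to 0.26 when each library was left out, and they were 0.36 within the 3 libraries and -0.59 against aged 5 alone, respectively. With deposited TPM in place of counts, added after the levels were seen, 0 genes passed, all 9 members kept their direction, and the median over all genes was 0.05.

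The replicate number as a block, with aged 5 left out, gave 13 genes and 0 members. Same-numbered libraries had correlations of deviation of 0.456, 0.554, -0.387 and 0.739, and not every library correlated best with its own number, so the samples were not treated as paired. Low counts limit Cd300c, Cd209a and Batf3 outside aged 1 and aged 2, and they limit Xcr1 as well.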
